A study of Homo sapiens with 16 samples.

Results

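The genes described here encode the enzymes that put the cap on human mRNA, methylate it, or take away caps that are wrongly made, together with the proteins that hold these enzymes together. They are RNGTT, RNMT, RAMAC, NCK1, CMTR1, CMTR2, PCIF1, TGS1 and DXO, 9 of the 60107 genes listed in the count tables. They were chosen by name for what their proteins do and found by Ensembl ID through GENCODE. That rule does not use the measured levels, but the choice was made with earlier results of these data known. Cytoplasmic RNA came from U2OS-TR, a human osteosarcoma line that stably expresses the tetracycline repressor, and each library holds tags counted next to poly(A) tails.

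The transgene line, U2OS-TR/ΔN-RNMT, also carries ΔN-RNMT, the C-terminal portion of RNMT with a mutation where S-adenosylmethionine binds, a FLAG tag and a nuclear export signal from HIV Rev. A CMV promoter with tetracycline operators drives it. The line is 1 clone, selected in G418 and picked for strong expression of the protein. There were 5 uninduced libraries and 5 induced libraries collected 24 h after doxycycline, and the parental U2OS-TR line, which has the repressor but not the transgene, gave 3 libraries without and 3 with doxycycline. The study's methods give 1 μg/ml doxycycline for the induced cells. The treatment text recorded with the libraries names the drug for all 16, and the groups were taken from the titles. The question is whether mRNAs for the capping machinery themselves changed when a cytoplasmic inhibitor of cap methylation was made, and whether doxycycline alone gave such a change.

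A cap is built as RNA polymerase II starts a transcript. Capping enzyme, the product of RNGTT, removes a phosphate from the 5′ end and joins a guanosine to it in reverse orientation, and RNMT, held active by its small partner RAMAC, then methylates that guanosine. CMTR1 and CMTR2 add methyl groups to the ribose of the nucleotides that follow the cap, and PCIF1 methylates the base when the first of them is an adenosine. In the cytoplasm a second complex is assembled on the adaptor NCK1, which binds capping enzyme, and can put a cap back on an RNA that has lost it. TGS1 adds further methyl groups to the caps of small nuclear and some other RNAs, and DXO removes incomplete caps and degrades the RNA behind them.

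The substrate of these enzymes is the start of a transcript, so the starts of their own mRNAs are shown. RefSeq promoter windows on GRCh38.p14 matched 7 of the 9 genes. Lower case marks the 10 bases before the annotated start and capitals the 20 bases from it onward, read along the transcribed strand.
RNGTT: aagttgcggtGCATTGTGGGTTCTCCTGGA
RAMAC: agcggaagtcAGGTGGTTGTCGGATTTTAG
NCK1: ccgcctgcccACCGCGCGTGCCCCGCCTCT
CMTR1: tgcgctgcccGCAGTACTGGACCCGAGCGC
CMTR2: tggggccagcAGCCAGTGAGCGGAACCAGC
PCIF1: catgcgcagcGCGGAGTCCCGGCCCGGGAC
DXO: ccggggactcGTTGGCGGCGTGGAGGGGCG
These windows lie at chr6:88963599-88963628 (minus strand), chr15:82986200-82986229 (plus), chr3:136862198-136862227 (plus), chr6:37433211-37433240 (plus), chr16:71289703-71289732 (minus), chr20:45934673-45934702 (plus) and chr6:31972119-31972148 (minus), in the order printed. The annotated starts of RNGTT, RAMAC, NCK1 and PCIF1 were those of GENCODE to the base, and those of CMTR1, CMTR2 and DXO lay 2, 7 and 152 bases away. NCK1 and CMTR2 have 2 windows each, and the one nearer the GENCODE start is printed. RAMAC, NCK1 and CMTR2 begin with A and the other 4 with G, against 44.4% of all 35116 promoter windows with A and 33.6% with G. A terminal oligopyrimidine start, the feature this study is concerned with, was searched for as a C at the start followed by 4 bases that are each C or T, on the transcribed strand alone. It was in 0 of the 7 windows and in 4.07% of all windows, and says only that these letters are not at the annotated starts.

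Depth was 12527183 to 23251834 counts on genes in the transgene line and 1473286 to 3214808 in the parental line, which was sequenced at another facility. Values below are counts per 1000000 (CPM) after edgeR's TMM scaling within each line, and they are set by the number of mRNA ends rather than by mRNA length. Markers of mesenchymal and osteosarcoma cells, a list of 7 genes, were present. They summed to 625 to 1056 CPM in uninduced and 852 to 1246 CPM in induced libraries. COL1A2 among them was at 0 in the uninduced group. Within that list VIM rose from 165 to 448 CPM (log2 fold change 1.44, adjusted P = 0.01825) and RUNX2 by 1.16 (adjusted P = 0.01755), and the other 4 tested were not called. Markers of mature osteoblasts summed to at most 2.03 CPM in the transgene line, with BGLAP and SP7 at 0. Of the markers of other cell types, PECAM1 was at 0 in uninduced libraries and PTPRC averaged 0.494 CPM or less. The other 3 are epithelial and had no shared direction. KRT18 fell from 387 to 225 CPM (adjusted P = 0.01755, edgeR), EPCAM stood at 7.84 and 12.0 CPM (log2 fold change 0.61, adjusted P = 0.07723), and CDH1, below the count minimum, at 0.514 and 1.64 CPM. Nuclear RNAs summed to 736 to 929 CPM and 490 to 895 CPM, NEAT1 among them falling by 0.44 on the log2 scale (adjusted P = 0.04097). In the parental line they summed to 459 to 1621 CPM without and 263 to 442 CPM with doxycycline. There MALAT1 averaged 726 and 122 CPM (log2 fold change -2.57, adjusted P = 0.997, edgeR), against a change of 0.03 on induction. Of 2 nuclear RNAs tested for a difference between the lines, 1 was called. The part of these shifts in the results below was not tested. Uninduced replicate 5 and induced replicate 2 stood apart, lying at 33.9 and -13.5 on the first principal component (78.9% of the variance), where the other induced libraries were above and the other uninduced libraries below both. Results are therefore also given without them, a choice made after the data were seen.

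On induction 3 of the 9 genes rose, RNMT, NCK1 and RAMAC, and 1 fell, DXO. The induced transgene was made from RNMT, so the RNMT counts may hold transgene tags. RNGTT, CMTR1, CMTR2, PCIF1 and TGS1 did not pass the test. These 4 calls are 4 of 9 beside 39.8% of the 13038 genes tested (20.0% higher and 19.8% lower), so the share called was near that of all genes. The median log2 fold change of the 9 was 0.37 and that of all tested genes 0.04. Groups did not overlap for 1 gene, RNMT, beside 7.30% of all genes. Except where DESeq2's Wald test is named, all adjusted P values for induction come from quasi-likelihood tests in edgeR. They were adjusted by the Benjamini-Hochberg method over those 13038 genes. Where a library was left out, that was done over the genes that then passed the same count minimum. In RNA from whole cultures, fewer cells with an mRNA and less of it per cell cannot be told apart.

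**Figure D1:**
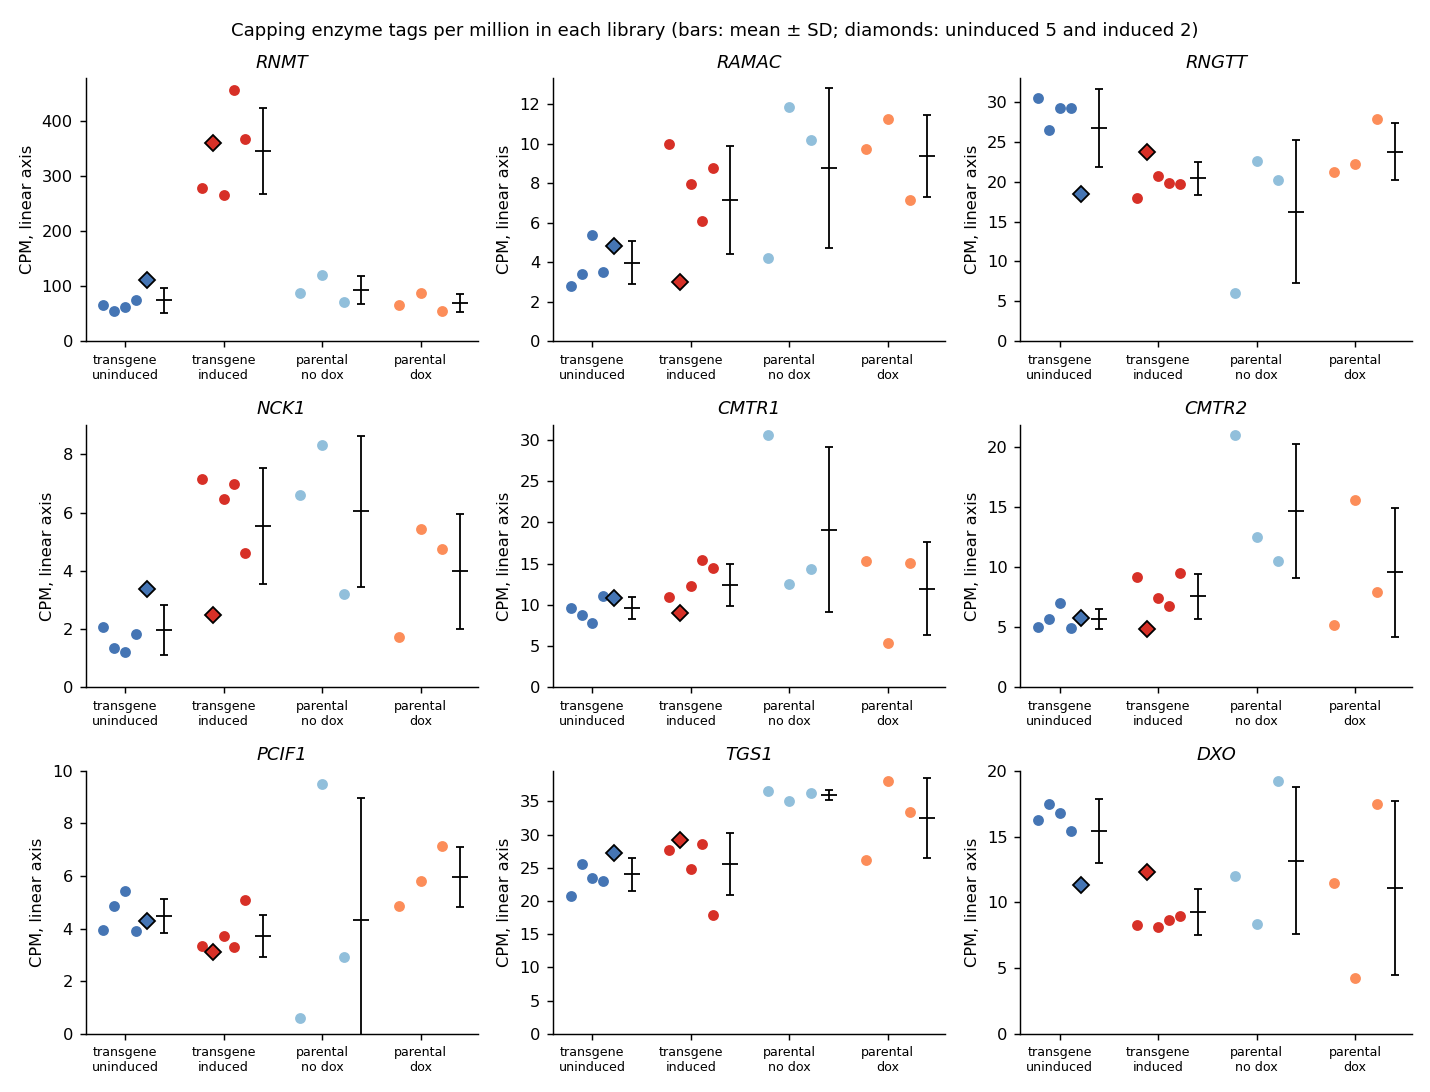
Each panel plots CPM (linear axis from 0) of 1 gene in the 16 libraries by group, each point a library, the bar giving mean ± SD, and diamonds marking uninduced replicate 5 and induced replicate 2. The lower SD limit of PCIF1 without doxycycline runs below 0 and is cut off. RNMT in the 5 induced libraries sits at 265 to 457 CPM, above all other libraries, whereas for NCK1 and DXO the diamonds lie toward the opposite group.

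RNMT, from which the transgene was made, lies on GRCh38 at chr18:13726660-13764556, plus strand, with 12 exons. It stood at 66.0, 55.5, 62.6, 74.4 and 112 CPM in uninduced replicates 1 to 5 and at 278, 360, 265, 457 and 367 CPM in induced replicates 1 to 5. The lowest induced library was above the highest uninduced library, which was replicate 5. The log2 fold change was 2.22 (standard error 0.23, 95% interval 1.72 to 2.72, adjusted P = 0.008056), larger than that of 98.4% of tested genes. It was the only member past the threshold in every fit of this comparison, at 2.02 with 1 surrogate variable as a covariate and 1.89 after correction for GC content. The counts do not separate the transgene from the native gene, so the rise cannot be read as one of native RNMT mRNA. By western blot the study found ΔN-RNMT protein only with doxycycline, and reported that endogenous RNMT protein was not affected. That blot does not measure mRNA. FAM210A, which overlaps RNMT on the opposite strand outside its last exon, had a log2 fold change of 0.22 (adjusted P = 0.1887).

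RAMAC encodes the small subunit that activates RNMT (chr15:82986210-82991057, plus strand, 4 exons). Its level was 2.79, 3.38, 5.38, 3.53 and 4.85 CPM in uninduced replicates 1 to 5 and 9.97, 3.00, 7.98, 6.07 and 8.77 CPM in the induced ones. Induced replicate 2 lay within the uninduced range and the other 4 induced libraries lay above it. RAMAC rose by 0.84 on the log2 scale (standard error 0.31, 95% interval 0.17 to 1.51, adjusted P = 0.04779). That call sat at the threshold, being lost in 7 of 10 fits that each left out 1 library (adjusted P up to 0.1162) and after GC correction (log2 fold change 0.35, adjusted P = 0.3218). Its last exon is overlapped by C15orf40 on the opposite strand, which stood at 0.38 (adjusted P = 0.07602), and its copy RAMACL had 0 counts.

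The ratio of RNMT tags to RAMAC tags was higher in every induced library than in any uninduced one. Its median was 21.0 in uninduced libraries, where it ran from 11.6 to 23.5, and 41.7 in induced libraries, where it ran from 27.8 to 119. In the parental line the median ratio was 9.98 without and 7.32 with doxycycline. These ratios compare tags at the mRNA ends of both genes, with 0.5 added to each count, and are a description with no test. Any RNMT tags of the transgene are not separated from those of the native gene, so the ratio cannot be read as the balance of the native mRNAs. The highest ratio came from induced replicate 2, which had 64 RAMAC counts.

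RNGTT encodes capping enzyme (chr6:88609897-88963618, minus strand, 16 exons). Its mRNA stood at 30.5, 26.4, 29.3, 29.2 and 18.4 CPM in uninduced replicates 1 to 5 and 18.0, 23.7, 20.7, 19.8 and 19.7 CPM in induced replicates 1 to 5. Uninduced replicate 5 was within the induced range, and the other 4 uninduced libraries were above all 5 induced ones. The log2 fold change was -0.39 (standard error 0.16, 95% interval -0.75 to -0.03) and did not pass (adjusted P = 0.07288). It did pass without uninduced replicate 5 (-0.51, adjusted P = 0.007614), without induced replicate 2 (-0.45, adjusted P = 0.04779), and after GC correction (-0.84, adjusted P = 0.028). The first 2 of these fits called 58.5% and 48.8% of all tested genes. They were the only 2 of 10 fits leaving out 1 library in which RNGTT passed (adjusted P up to 0.1546). With all libraries kept, RNGTT also passed by DESeq2's Wald test (-0.43, adjusted P = 0.0472), which called 45.9% of tested genes. GC correction with the replicate number as a block gave -0.82 (adjusted P = 0.03143). Tags of RNGTT outnumbered those of RAMAC in the uninduced group, at 26.8 ± 4.89 against 3.98 ± 1.08 CPM (SD, n = 5).

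NCK1, the adaptor on which the cytoplasmic complex forms and a link between receptor tyrosine kinases and actin, was the least abundant of the genes in uninduced cells (chr3:136862208-136951606, plus strand, 4 exons). Uninduced replicates 1 to 5 had 2.08, 1.34, 1.22, 1.84 and 3.38 CPM, and induced replicates 1 to 5 had 7.14, 2.49, 6.46, 6.99 and 4.62 CPM. These rest on 22 to 78 counts per uninduced and 53 to 152 per induced library. Overlap came from uninduced replicate 5 and induced replicate 2, and the other 4 libraries of each group were apart. NCK1 rose by 1.48 on the log2 scale (standard error 0.35, 95% interval 0.72 to 2.23, adjusted P = 0.01755), and by 1.94 without those 2 libraries. The change was 0.94 after GC correction (adjusted P = 0.03017) and 0.84 with a surrogate variable, where it did not pass (adjusted P = 0.1199). Its divergent neighbour NCK1-DT, a noncoding gene on the opposite strand, rose by 1.21 (adjusted P = 0.04623). IL20RB, which shares the last exon's region on the same strand, stood at -0.26 (adjusted P = 0.4008). Use of strand in counting was not stated, so tags of these neighbours cannot be fully told apart.

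**Figure D2:**
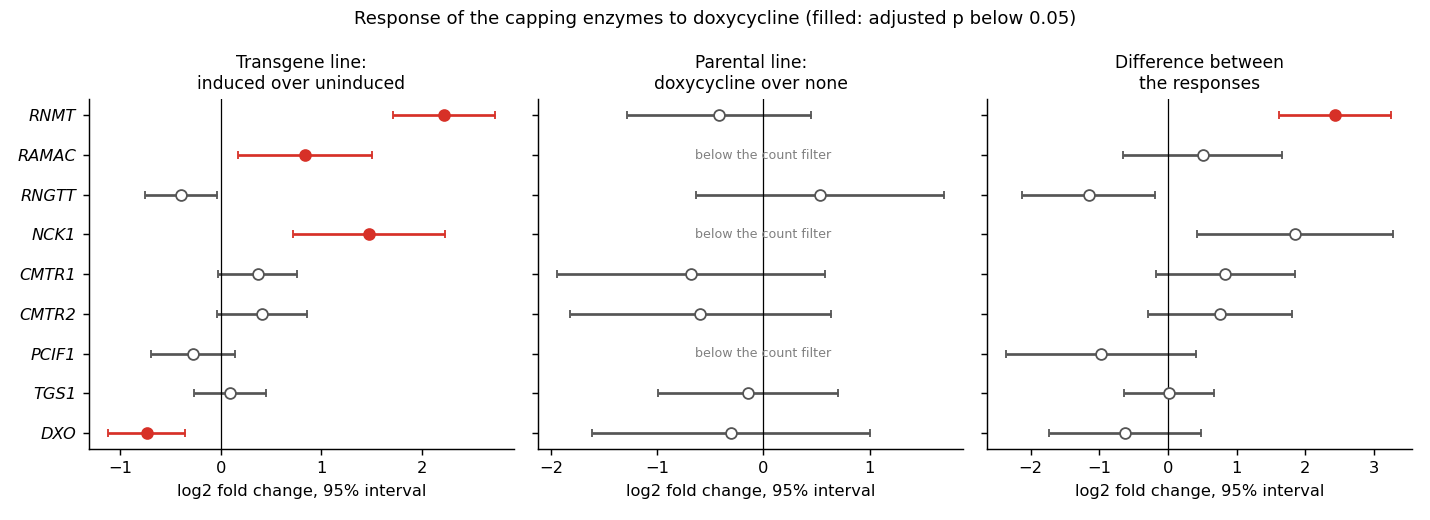
Log2 fold change of the 9 genes (x axis, points) with its 95% interval (bars) on induction (left), with doxycycline in parental cells (middle) and as the difference between the lines (right), filled where the adjusted P was below 0.05. RNMT, RAMAC, NCK1 and DXO are filled on the left, none in the middle, and RNMT alone on the right, at 2.43.

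CMTR1 and CMTR2, the cap ribose methyltransferases, had similar small shifts that did not pass. CMTR1 (chr6:37433219-37482827, plus strand, 24 exons) stood at 9.58, 8.81, 7.82, 11.1 and 10.8 CPM uninduced and 10.9, 9.06, 12.3, 15.4 and 14.5 CPM induced. CMTR2 (chr16:71281389-71289715, minus strand, 3 exons) stood at 5.02, 5.72, 6.99, 4.93 and 5.76 CPM uninduced and 9.15, 4.88, 7.47, 6.76 and 9.54 CPM induced. For both genes 3 of 5 induced libraries were above the whole uninduced range and induced replicate 2 was the lowest induced library. The log2 fold changes were 0.37 for CMTR1 (standard error 0.18, 95% interval -0.03 to 0.76, adjusted P = 0.114) and 0.41 for CMTR2 (standard error 0.20, 95% interval -0.04 to 0.85, adjusted P = 0.1179). Without induced replicate 2 both passed, at 0.46 (adjusted P = 0.04221) and 0.53 (adjusted P = 0.03017), in a fit that called 48.8% of all tested genes. Each passed in only 1 of the 10 fits that left out 1 library, with adjusted P values up to 0.2534 and 0.2405. GC correction left CMTR1 at 0.51 and put CMTR2 at -0.08. Both genes also passed when libraries were scaled by total counts, a scaling that moved the median of all genes from 0.04 to 0.28.

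PCIF1, the cap-adjacent adenosine methyltransferase (chr20:45934683-45948023, plus strand, 17 exons), had 3.95, 4.84, 5.43, 3.91 and 4.29 CPM in uninduced replicates 1 to 5 and 3.35, 3.10, 3.73, 3.31 and 5.09 CPM in the induced ones. Induced replicate 5 lay inside the uninduced range and the other 4 induced libraries below it. The log2 fold change was -0.27 (standard error 0.19, 95% interval -0.69 to 0.15, adjusted P = 0.2583), and 0.10 after GC correction.

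TGS1, which hypermethylates caps (chr8:55773446-55826445, plus strand, 13 exons), had 20.8, 25.6, 23.5, 23.0 and 27.2 CPM uninduced and 27.7, 29.2, 24.9, 28.6 and 17.8 CPM induced. Induced libraries lay both above and below the uninduced range. The log2 fold change was 0.09 with a 95% interval from -0.26 to 0.45 (standard error 0.16, adjusted P = 0.6468), and -0.27 after GC correction.

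DXO, the decapping and 5′ exonuclease enzyme for incomplete caps (chr6:31969810-31972290, minus strand, 7 exons), fell. It stood at 16.3, 17.5, 16.8, 15.4 and 11.3 CPM in uninduced replicates 1 to 5 and 8.26, 12.3, 8.10, 8.64 and 9.0 CPM in induced replicates 1 to 5. Only uninduced replicate 5 and induced replicate 2 overlapped, and the other libraries of the groups were apart. The log2 fold change was -0.74 (standard error 0.18, 95% interval -1.12 to -0.35, adjusted P = 0.01755), and -0.96 without those 2 libraries. It was -0.41 after GC correction (adjusted P = 0.04196) and -0.45 with a surrogate variable, where it did not pass (adjusted P = 0.12). SKIC2, which overlaps the last exon of DXO on the opposite strand, had a log2 fold change of -0.32 (adjusted P = 0.135).

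In the uninduced cells the order of levels was RNMT (74.1 CPM), RNGTT (26.8), TGS1 (24.0), DXO (15.5), CMTR1 (9.63), CMTR2 (5.68), PCIF1 (4.49), RAMAC (3.98) and NCK1 (1.97). The ranges of RNGTT and TGS1 overlapped, as did those of each neighbouring pair from CMTR2 down to NCK1. RNMT, RNGTT with TGS1, DXO and CMTR1 were otherwise apart from their neighbours. In induced cells the order became RNMT (345), TGS1 (25.6), RNGTT (20.4), CMTR1 (12.4), DXO (9.27), CMTR2 (7.56), RAMAC (7.16), NCK1 (5.54) and PCIF1 (3.72). There the ranges of every neighbouring pair overlapped except RNMT with TGS1 and RNGTT with CMTR1. NCK1 passed from below PCIF1 to above it, and DXO from above CMTR1 to below it, each within overlapping ranges in the induced group.

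Doxycycline alone was examined in the parental line, where none of 9124 tested genes was called (0.00%), and 267 (2.93%) had an unadjusted P below 0.05. By DESeq2's Wald test 1 gene was called. Of the capping genes 6 could be tested, since RAMAC, NCK1 and PCIF1 had base means of 18.7, 10.3 and 10.7 counts, under the minimum of 20. None of the 6 was called, none had an unadjusted P below 0.05, and every adjusted P was 0.997. RNMT stood at 86.9, 121 and 71.5 CPM without and 65.8, 88.2 and 54.8 CPM with doxycycline. Its ranges overlapped and its log2 fold change was -0.42 (standard error 0.39, 95% interval -1.28 to 0.45).

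The remaining genes were measured with wide intervals at this depth. RNGTT had 6.00, 22.6 and 20.1 CPM without and 21.2, 22.2 and 27.8 CPM with the drug, the first of these resting on 10 counts, and a log2 fold change of 0.53 (95% interval -0.64 to 1.70). CMTR1 had 30.6, 12.5 and 14.3 against 15.3, 5.44 and 15.1 CPM, a change of -0.68 (95% interval -1.94 to 0.58). CMTR2 had 21.0, 12.5 and 10.5 against 5.22, 15.5 and 7.95 CPM, a change of -0.59 (95% interval -1.83 to 0.64). TGS1 was the steadiest without the drug, at 36.6, 35.1 and 36.2 CPM, and had 26.1, 38.1 and 33.4 CPM with it (-0.15, 95% interval -1.0 to 0.71). DXO ran from 8.32 to 19.3 CPM without and from 4.28 to 17.5 CPM with doxycycline (-0.30, 95% interval -1.62 to 1.01). For all of them the groups overlapped, beside 9.52% of tested genes whose groups did not, and the intervals of CMTR1, CMTR2, RNGTT and DXO do not exclude a 2-fold change in at least 1 direction.

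Of the untested genes, RAMAC had 4.20, 11.9 and 10.2 CPM without and 9.75, 11.3 and 7.15 CPM with doxycycline. NCK1 had 6.60, 8.32 and 3.21 against 1.74, 5.44 and 4.77 CPM. PCIF1 had 0.600, 9.51 and 2.92 against 4.88, 5.83 and 7.15 CPM, and its lowest value is 1 count. Groups overlapped for all of these, and no direction is read from them.

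The responses of the lines were compared directly in a fit of all 16 libraries, with 12265 genes tested and 2.98% called. RNMT alone of the 9 genes differed between lines, by 2.43 on the log2 scale (standard error 0.39, 95% interval 1.61 to 3.25, adjusted P = 0.0258, edgeR). The parental line lacks the transgene, and any transgene tags are not told apart from those of native RNMT. Whether such tags fall in the RNMT counts was not tested. A difference in RNMT therefore cannot be read as one of the native gene alone. The difference stayed between 2.31 and 2.77 when each of the 16 libraries was left out in turn. It was past the threshold in 8 of those 16 fits, and the adjusted P reached 0.1244 without parental doxycycline replicate 1. NCK1 (1.85, standard error 0.68, adjusted P = 0.105) and RNGTT (-1.15, standard error 0.46, adjusted P = 0.1292) had unadjusted P values of 0.01434 and 0.02235, a level under 0.05 that 26.1% of tested genes reached, and were not called. The rises of NCK1 and RAMAC and the fall of DXO in the transgene line were therefore not shown to differ from the response to doxycycline alone, with differences of 1.85, 0.50 and -0.63 and adjusted P values of 0.105, 0.5778 and 0.4546. Facility, depth, tags assigned to no gene and mitochondrial share differed between the lines and cannot be told apart from the line.

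The base composition of the transcripts moved with the response. Over all tested genes the median log2 fold change was 0.43 in the lowest of 4 equal bins of GC content, then 0.20, -0.13 and -0.46 in the highest. RNMT (41.1% GC), RAMAC (38.3%), RNGTT (38.8%), NCK1 (36.0%), CMTR2 (37.9%) and TGS1 (40.9%) are in the lowest bin, CMTR1 (53.3%) in the third, and DXO (58.3%) and PCIF1 (60.0%) in the highest. After correction with GC offsets RNMT, NCK1 and DXO stayed past the threshold, RAMAC did not, and RNGTT passed. With the replicate number added as a block to that correction, DXO was no longer called (-0.41, adjusted P = 0.05449) and CMTR1 was (0.49, adjusted P = 0.0492). CMTR2, PCIF1 and TGS1 changed sign, none of them being called either way. RNGTT thus had a negative change in the bin where the median was most positive. The part of GC content in these values was not tested beyond this correction.

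**Figure D3:**
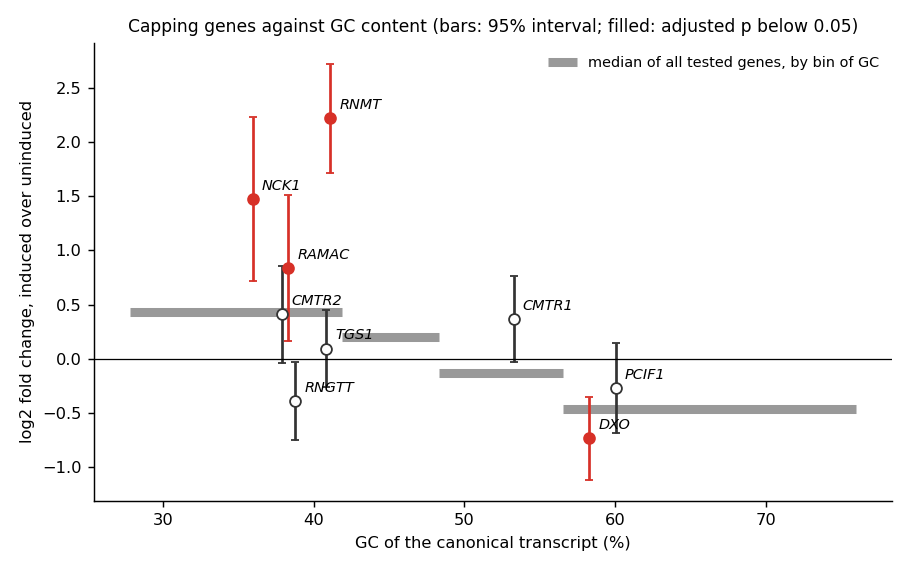
Log2 fold change on induction (y axis) with its 95% interval against GC content of the canonical transcript (x axis, percent) for the 9 genes, filled where the adjusted P was below 0.05, and grey bars for the median of all tested genes in each bin of GC. The bars step down from 0.43 to -0.46, RNMT and NCK1 lie well above the bar of their bin and RNGTT lies below it.

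The libraries that stood apart decided several of the calls. Induced replicate 2 was the induced library nearest the uninduced mean for 6 of the 9 genes, and uninduced replicate 5 the uninduced library nearest the induced mean for 4, both holding for RNGTT, NCK1 and DXO. Without both libraries 7 of the 9 genes were called, RNMT, RAMAC, NCK1, CMTR1 and CMTR2 higher and RNGTT and DXO lower, beside 8329 of 12956 tested genes (64.3%). Removing libraries that lie toward the opposite group widens any difference by construction, so this count is a description. With 1 surrogate variable in the fit RNMT was the single gene called in the whole table, while 3509 genes had an unadjusted P below 0.05.

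**Figure D4:**
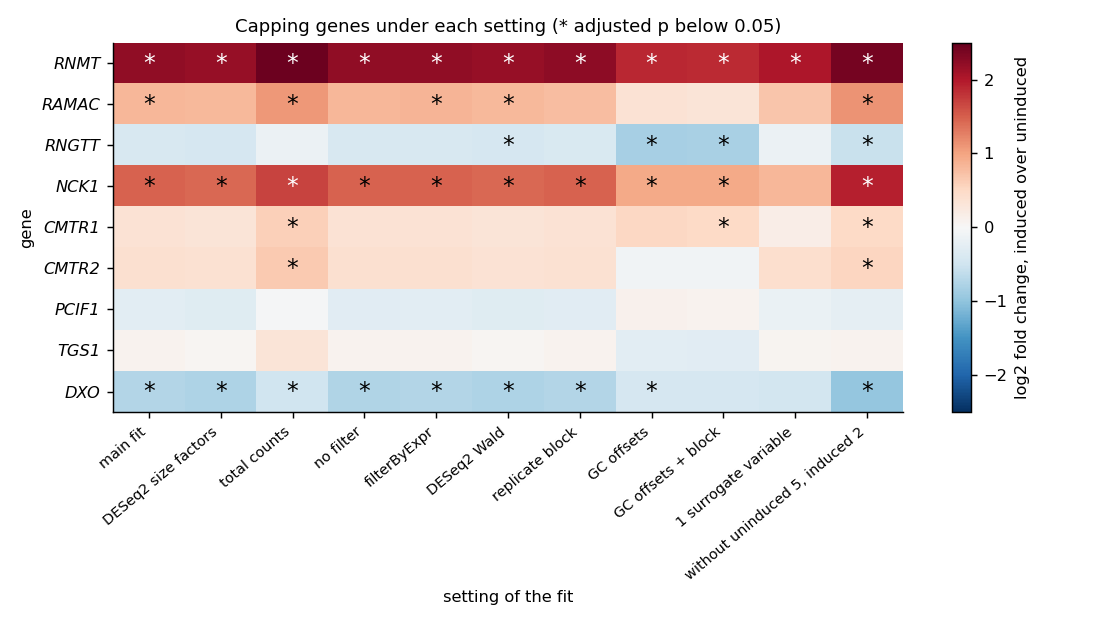
Colour gives the log2 fold change on induction of each of the 9 genes (rows) under 11 settings of the fit (columns), red for higher and blue for lower, and asterisks mark an adjusted P below 0.05. RNMT is marked in all columns, NCK1 in all but the surrogate variable, and PCIF1 and TGS1 in none.

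The profiles of the genes over the 10 transgene-line libraries were compared by the mean absolute difference of their centred log2 CPM, as a description. RNGTT and DXO were the most alike (0.18), followed by RNGTT with PCIF1 (0.25), CMTR1 with CMTR2 (0.27) and RAMAC with CMTR2 (0.28). RNMT and its subunit RAMAC were 0.76 apart, and RNMT and DXO the farthest (1.48). Among all tested genes the 3 nearest to DXO were CCT7, CTDSP1 and ENDOV, at 0.04 to 0.05, those nearest to NCK1 were STK38L, PPWD1 and DDX20, at 0.12 to 0.14, and those nearest to RAMAC were PLGRKT, PLS1 and ANO6, at 0.11 to 0.14. LINC02475, DOT1L and PHLDB1 were nearest to RNGTT, MFN2, WDFY3 and LRP8 to CMTR1, BTN2A1, ARPIN and TSG101 to CMTR2, MAP4K2, SAR1B and TPTEP1 to PCIF1, and DYM, STOX2 and BTAF1 to TGS1. RNMT had no close neighbour, since EIF4G1, CAPZB and CLASP1, the nearest, were 0.33 to 0.35 away.

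Other genes of the cap pathway were followed in 8 lists holding 50 genes. Of these 46 were tested on induction, 9 rose and 3 fell, beside 39.8% called in all genes. None was called in the parental line, where 37 could be tested, and none differed between the lines among 44 tested.

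The list for recruitment of capping enzymes to RNA polymerase II and control of RNMT held 5 of those calls among 8 genes, with a median log2 fold change of 0.70 beside 0.04 for all genes. CDK7, CCNH and MNAT1 encode the kinase, cyclin and assembly factor that phosphorylate the polymerase tail, to which capping enzymes bind. CCNH averaged 2.30 CPM uninduced, from 0.628 to 8.53, and 15.2 CPM induced, from 1.92 to 21.6, and rose by 2.69 (standard error 0.82, adjusted P = 0.02715). CDK7 rose by 2.07 (standard error 0.52, adjusted P = 0.0177), from 3.82 to 16.2 CPM, and MNAT1 by 1.34 (standard error 0.28, adjusted P = 0.01755), from 13.2 to 33.3 CPM. The groups of all these genes overlapped. Without uninduced replicate 5 the changes of CCNH and CDK7 were 4.33 and 2.71, both called, in a fit that called 58.5% of tested genes. These were their highest values in the 10 fits that left out 1 library, and the lowest were 2.46 and 1.86. After GC correction they were 2.44 and 1.67, both called. With a surrogate variable they were 1.48 and 1.14, neither called. CDK1, the cell cycle kinase that phosphorylates RNMT, rose by 0.70 (adjusted P = 0.02136) and is named beyond the rule because its value was seen. SUPT4H1, a subunit of the elongation factor that aids capping, fell by 0.55 (adjusted P = 0.02811). CCNH, CDK1 and SUPT4H1 lost their calls in 7, 5 and 7 of the 10 fits that left out 1 library.

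None of the 7 genes of the nuclear cap-binding complex and its partners was called (median -0.21). Of 11 genes for cap removal and decay from the 5′ end 10 were tested. XRN1, the exonuclease that degrades uncapped RNA, rose from 8.45 ± 1.20 to 13.5 ± 1.12 CPM (SD, n = 5) without overlap between the groups, by 0.67 (adjusted P = 0.01755). EDC3, an enhancer of decapping, fell from 10.5 ± 1.83 to 6.22 ± 1.75 CPM (SD, n = 5), by 0.75 (adjusted P = 0.02257), also without overlap. Among these genes 8 were not called, and the median was 0.13. Groups did not overlap for 7.30% of all tested genes.

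MEPCE, which caps 7SK RNA with a methyl group, fell by 0.76 (adjusted P = 0.02209), the 1 call among 4 tested genes for caps of small nuclear RNAs and 7SK. SMN1 and SMN2, near-identical copies that share reads, were below the count minimum. MAT2B, the regulatory subunit of the enzyme that makes S-adenosylmethionine, rose by 1.34 (adjusted P = 0.0177), alone among 5 genes for supply and use of that methyl donor. SOS1, an exchange factor for Ras that binds SH3 adaptors, rose by 0.87 (adjusted P = 0.03335), alone among 6 partners of NCK1. The demethylase FTO stood at -0.01 (adjusted P = 0.9413). Of the cap sensors 2 of 5 tested rose, IFIT5 by 0.88 (adjusted P = 0.03186) and RIGI by 0.81 (adjusted P = 0.01755), with a list median of 0.53. RIGI had 1.46 to 2.08 CPM uninduced and 2.84 to 4.17 CPM induced, without overlap, beside 7.30% of all tested genes. SOS1 and IFIT5 lost their calls in 8 and EDC3 and MEPCE in 4 of the 10 fits that left out 1 library. After GC correction CDK1, XRN1, MEPCE, SOS1, IFIT5 and RIGI were no longer called.

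**Figure D5:**
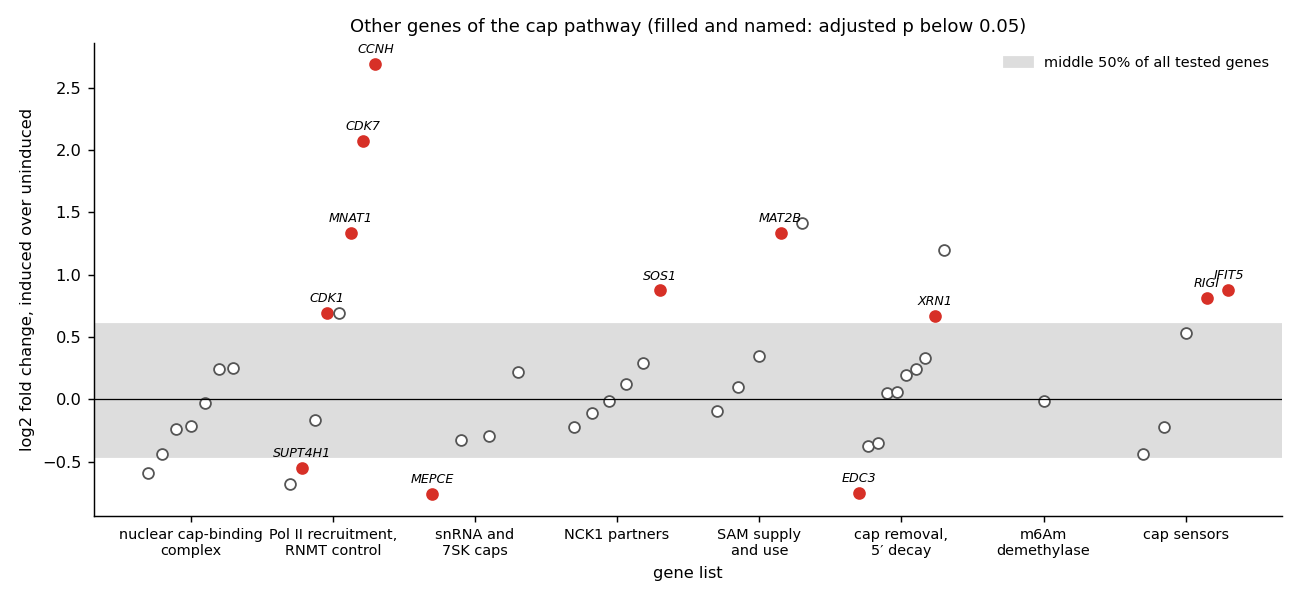
Log2 fold change on induction (y axis) of each tested gene in the 8 lists (x axis), filled and named where the adjusted P was below 0.05, over a grey band for the interquartile range of all tested genes (-0.46 to 0.60). CCNH, CDK7 and MNAT1 lie above the band, and the 7 genes of the nuclear cap-binding list are all open circles.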

How the data were processed

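Cytoplasmic poly(A) RNA of 16 libraries was measured by QuantSeq REV. Raw tag counts for each Ensembl gene were deposited by the authors from the Lexogen pipeline for GRCh38, 1 table per library. The aligner, annotation release and treatment of strand and duplicates are not given in the sources used here. No column was left out. GENCODE release 44 named 56104 of 60107 genes and gave coordinates. Counts with a base mean above 20 were tested in R 4.3.3 with edgeR 4.0.16 (TMM, quasi-likelihood test, Benjamini-Hochberg, calls at an adjusted P below 0.05), in each line apart and in all libraries for the difference between lines. DESeq2 1.42.0 and sva 3.50.0 served the alternatives. GC offsets used a lowess span of 0.5. Log2 CPM per library used a prior count of 2. The fits were also run on simulated counts. These lacked the GC trend and the libraries that stood apart, so they cannot vouch for the fits on the real data. The text names all 9 genes, from each list the called genes (at most 3 per direction) and, for each of the 9, the 3 nearest profiles. The genes and lists were chosen with earlier results of these data known. The study describes the transgene-line libraries as biological replicates and the parental ones as separate cultures, and P values measure the spread between them. All pairs of libraries in a group differed by more than sampling noise. Tag positions, RT-qPCR and protein data were not analysed here.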

Additional observations from a re-analysis of the deposited data

Results flagged for a closer look

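DXO in induced replicate 2, at 12.3 CPM, stood apart from the other 4 induced libraries, which lay between 8.10 and 9.0 CPM. The gap to its nearest neighbour was 0.787 of the range of the group, above the critical value of 0.71 for 5 samples. It was the 1 such value among 18 groups of 5 libraries examined, and chance gives about 1 in 20. Induced replicate 2 also stood apart over all genes.

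The response of RNMT to doxycycline differed between the lines by 2.43 on the log2 scale (edgeR, adjusted P = 0.0258).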

How the results depend on the processing

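RNMT kept its direction and its call on induction under every setting run. NCK1 and DXO did so in all 10 fits that left out 1 library. The fit with 1 surrogate variable called 1 gene in all and 1 of the 9. DESeq2's Wald test called 5981 genes and 5 of the 9, RNGTT being added as lower. Leaving out 1 library gave 1869 (without induced replicate 1) to 7604 genes (without uninduced replicate 5) and 3 to 7 of the 9. Leaving out uninduced replicate 5 and induced replicate 2 together gave 8329 genes and 7 of the 9. Scaling by total counts called 4019 genes higher and 1404 lower, where TMM called 2604 and 2579. Same-numbered libraries correlated from -0.373 to 0.625 over 5 pairs, and 3 of the 10 libraries correlated best with their own number. No pairing by number was seen, and 5 pairs are too few to exclude it. With the replicate block 5190 genes and 3 of the 9 were called on induction, RAMAC being lost (0.78, adjusted P = 0.05545), and the block left 0 calls in the parental line and 222 in the comparison of lines. In the parental line the counts were 10 without a filter, 1 with DESeq2's Wald test and 0 to 2 when 1 library was left out, none of them a capping gene. Between lines, 365 genes differed, against 236 with DESeq2 size factors, 150 without a filter, 3 with filterByExpr, 1478 with DESeq2's Wald test, 189 with GC offsets and the block, 2355 with 1 surrogate variable and 3040 without the 2 libraries together, which called 3 of the 9. Leaving out 1 library gave 0 to 2291 genes and 0 to 3 of the 9.

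Signs turned on induction for CMTR2 (-0.083), PCIF1 (0.10) and TGS1 (-0.27) with GC offsets, and with the block added (-0.085, 0.090 and -0.29). Between lines they turned for TGS1 (-0.23 with GC offsets, -0.24 with the block added, -0.045 without the 2 libraries, -0.060 to 0.30 leaving out 1 library) and for DXO with total counts (0.013). In the parental line DXO ran from -0.80 to 0.16 as 1 library was left out. None of these was called, and the cause was not tested. At the depth of the parental line RAMAC, NCK1 and PCIF1 had too few counts for a test.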
